A study of Macaca fascicularis with 3 samples.

Results

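miR-210, the microRNA (miRNA) most closely tied to the cellular response to low oxygen, was examined in the kidney cortex of cynomolgus monkeys. It was taken as every listed mature miRNA named miR-210, whichever arm of the hairpin the name gave. This rule found 1 of the 432 names with a read count, miR-210-3p, paired in the authors' table with human miR-210-3p. The rule uses names only and no measured value, though it was set with earlier results of these data known.

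Small RNA libraries were made from kidney cortex, the outer kidney zone with the glomeruli and most proximal tubules, of 3 naïve (untreated) Macaca fascicularis between 2 and 3 years of age. Each animal gave 1 library. The 3 libraries form a single group, so the levels are compared between miRNAs and between animals. No library is labelled as taken from a hypoxic kidney. The labels describe neither oxygen supply nor sex, and spread between animals cannot be told apart from spread between library preparations. The libraries held between 3957188 and 4707892 counts on the listed miRNAs. The renal names (miR-204 on both arms, miR-194-5p, miR-192-5p and miR-215-5p) summed to between 53073 and 61982 counts per 1000000 listed counts (CPM) in each library. The liver miRNA miR-122a was at 4.04 to 8.82 CPM. Most of the renal sum was miR-204-5p, at 43444 to 53577 CPM. miR-204-3p had 437, 529 and 19 counts in animals 1, 2 and 3.

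Mature miRNAs are cut from a hairpin precursor, and either arm of the hairpin, 5p or 3p, can be loaded into the silencing complex. In low oxygen the hypoxia-inducible factors, which are degraded when oxygen is plentiful, switch on the host transcript of miR-210. Its known targets include the iron-sulfur cluster scaffold ISCU, the cytochrome c oxidase assembly factor COX10 and the ephrin EFNA3, through which it is linked to lower mitochondrial respiration and to vessel growth. The cortex is the better oxygenated zone of the kidney, and the medulla beneath it normally works close to hypoxia.

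miR-210-3p was present in all 3 animals at a moderate level. It had 287 counts in animal 1, 489 in animal 2 and 349 in animal 3, or 1125 in all. As a share of listed counts this was 66.7 CPM in animal 1 (Wilson 95% confidence interval 59.4 to 74.8), 103.9 CPM in animal 2 (95.1 to 113.5) and 88.2 CPM in animal 3 (79.4 to 97.9). Animal 1 lay below the other two without overlap of the intervals, while the intervals of animals 2 and 3 overlapped. The mean was 86.2 CPM ± 18.7 (SD, n = 3), or 0.00862% of the listed counts. A floor of 3 counts corresponded to between 0.637 and 0.758 CPM, so every library measured miR-210-3p far above the limit of detection. The intervals cover the counting error of each library only. The reads carried no molecular identifiers, so repeated copies of 1 molecule could not be removed.

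**Figure D1:**
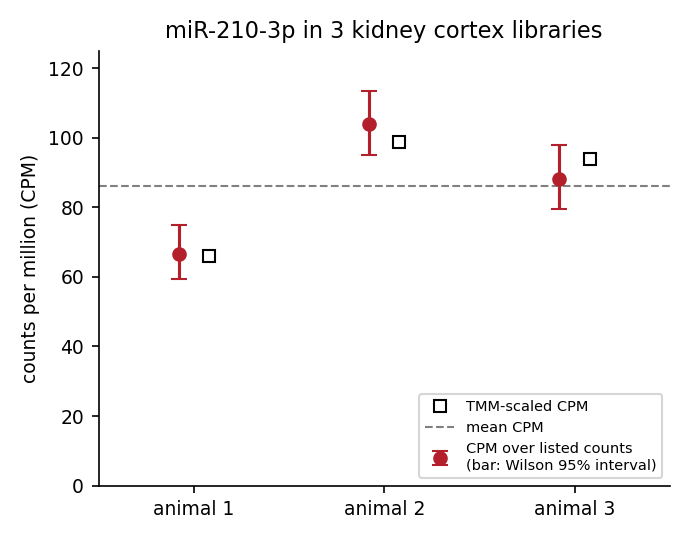
Level of miR-210-3p in each library, in CPM. Filled points are CPM over listed counts with Wilson 95% intervals, open squares are CPM scaled by the trimmed mean of M values (TMM), and the dashed line is the mean of 86.2 CPM. Animal 1 sits lowest under both scalings, and TMM scaling brings animals 2 and 3 closer together.

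By mean CPM, miR-210-3p stood at rank 184 of 432, with 183 miRNAs above it and 248 below. Its rank in the single libraries was 197, 180 and 174 in animals 1, 2 and 3. The median listed miRNA had a mean of 43.5 CPM, and the most abundant, miR-10b-5p, lay 1088-fold above miR-210-3p. CPM is not corrected for length, and mature miRNAs are of nearly the same length.

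The nearest miRNAs in the order changed sides with miR-210-3p between animals. Just above it were miR-7 (93.2 CPM ± 37.6), miR-221-5p (90.1 CPM ± 12.0) and miR-376b-3p (87.2 CPM ± 40.7). Just below it were miR-362-5p (85.7 CPM ± 88.1), miR-664 (84.9 CPM ± 20.4) and miR-615-3p (82.4 CPM ± 12.2), all SD over the 3 animals. Each of these 6 was higher than miR-210-3p in 1 or 2 of the 3 animals. Exact sign-flip permutation tests (two-sided) gave p values that ranged from 0.5 to 1.0, where 0.25 is the smallest that 3 animals allow. The Benjamini-Hochberg value over the 6 was 1.0 for each. The 6 were chosen for means near that of miR-210-3p, and 3 animals are too few, so these tests could not have separated them.

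The first miRNA upward in the order that exceeded miR-210-3p in all 3 animals was let-7b-3p at rank 179, with 408, 566 and 388 counts and 104.3 CPM ± 13.9. The first downward that lay below it in all 3 animals was miR-200a-5p at rank 196, with 190, 286 and 334 counts and 63.1 CPM ± 20.2. The 4 names between let-7b-3p and miR-210-3p and the 11 between it and miR-200a-5p each changed sides in at least 1 animal. Over the whole table, 164 of the 183 miRNAs above and 230 of the 248 below kept their side in every animal.

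**Figure D2:**
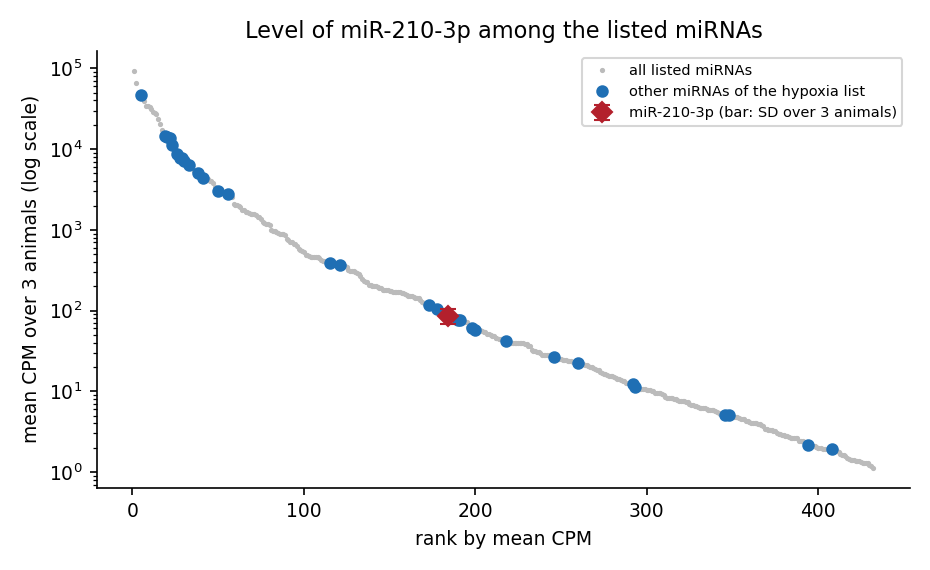
Mean CPM of the 432 listed miRNAs on a log axis against their rank. The red diamond is miR-210-3p at rank 184 with its SD over 3 animals. Blue points are the 31 other names of the hypoxia list, minor arms included, which lie on both sides of it.

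The 5p arm of miR-210 was not among the listed names, so the use of the arms could not be measured. Names summing to fewer than 15 reads over the libraries were left out by the authors, and whether the 5p arm was in their reference is not given in the sources used here. If it was searched, it had at most 14 reads, and the 3p arm then outnumbered it by 80.4-fold or more. The major arm outnumbered the minor by more than that in 35 of the 122 hairpins with both arms listed, whose median was 20.5-fold. Both arms of those hairpins had to reach 15 reads, which caps the ratio at a given count. The comparison therefore cannot tell whether the arms of miR-210 are unusually uneven. Among names that give an arm and had a total within 2-fold of that of miR-210-3p, 42 of 53 had their opposite arm listed.

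miR-210-3p differed between the libraries by more than counting error. Scaled by TMM, which evens out the composition of the libraries, it was at 65.9, 98.7 and 93.8 CPM in animals 1, 2 and 3, so that animal 1 was low and the other two were close. The highest value was 1.50-fold the lowest, a difference of 0.58 on the log2 scale. A chi-square test of equal shares over TMM effective library sizes gave an adjusted p of 1.79e-07, by Benjamini-Hochberg over the 391 names whose counts averaged 10 or more. The same test called 315 of these 391 miRNAs, or 80.6%, so a call is the usual outcome at this depth. Without animal 1 the adjusted p of this test was 0.529. It compares libraries and not conditions.

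Under TMM scaling, the difference lay between animal 1 and the others. With TMM refitted to each pair, miR-210-3p was 1.50-fold higher in animal 2 than in animal 1 (chi-square test, adjusted p 1.23e-07), where 59.2% of 400 miRNAs were called. It was also 1.50-fold higher in animal 3 than in animal 1 (adjusted p 6.57e-07), where 75.4% of 386 were called. Animal 3 was at 0.950 of the level of animal 2, with an adjusted p of 0.529, and 65.2% of 391 miRNAs were called there. The median miRNA differed by 1.28-fold, 1.50-fold and 1.37-fold in these 3 pairs, either way. The pairs share libraries and are not independent of each other. They were tested under TMM scaling alone. Animals 2 and 3 stood at 103.9 and 88.2 in plain CPM, and at 464.9 and 371.1 in the authors' normalized signal.

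The spread of miR-210-3p lay below the median of other miRNAs. Its span of 1.50-fold compares with a median of 1.71-fold over the 391 miRNAs, of which 135 had a smaller span, and 39.9% spanned more than 2-fold. Of 62 others with a total count within 2-fold of its own, from 580 to 2242, 18 had a smaller span and the median was 1.76-fold. The coefficient of variation that edgeR assigned to miR-210-3p was 0.399, beside a common value of 0.438. edgeR moderates this value by pooling over miRNAs, so it is not the measured spread. The SD of the plain CPM was 21.7% of its mean. By the edgeR value miR-210-3p lay near the middle, since 185 of the 391 miRNAs had a smaller one, and the moderation draws miRNAs together.

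Like most miRNAs, miR-210-3p did not share the large drops that some miRNAs had in animal 3. Its log2 deviation from the mean of the other two animals was 0.21 in animal 3, 0.32 in animal 2 and -0.54 in animal 1. In animal 3, 26 of the 391 miRNAs lay at -2 or below, against 2 in animal 1 and 2 in animal 2. In animal 1, 65 of the 391 deviated further downward than miR-210-3p.

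**Figure D3:**
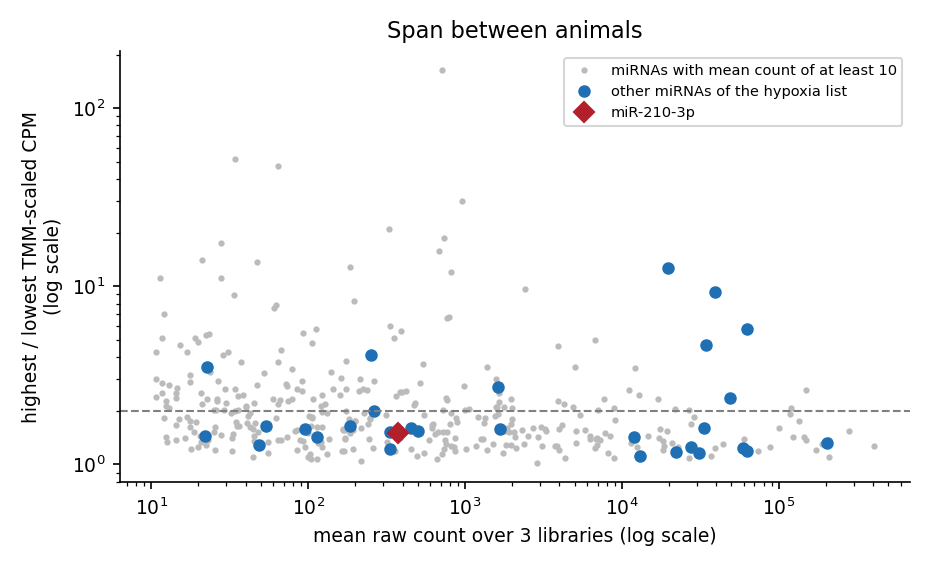
Highest over lowest TMM-scaled CPM of the 3 animals against the mean raw count, both on log axes, for 388 miRNAs. A further 3 with a count of 0 in a library have no finite ratio. miR-210-3p (red diamond, 1.50-fold) lies under the dashed line at 2-fold, and the blue points are 29 names of the hypoxia list.

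Markers of cell types that the tissue piece could hold were set beside the miR-210-3p values. The endothelial miRNA miR-126 was at 49842, 39923 and 40779 CPM in animals 1, 2 and 3, highest where miR-210-3p was lowest. The erythroid names (miR-451, miR-144 and both arms of miR-486) summed to 5025, 4374 and 5765 CPM, and the leucocyte names (miR-223, miR-150-5p and both arms of miR-142) to 1621, 1727 and 1518 CPM. The leucocyte sum was highest in animal 2, as miR-210-3p was, with a span of 1.14-fold, but its members differed. miR-142-3p and miR-223 were highest in animal 2 and miR-142-5p in animal 1. miR-150-5p was lowest in animal 2, with 515, 457 and 635 CPM in animals 1, 2 and 3. Among the erythroid names, miR-144 fell (633, 424 and 326 CPM) while miR-486-5p rose (20.7, 42.7 and 47.3 CPM). The neuronal miR-124a-3p was at 32.1 to 47.8 CPM. The part of any cell type in the miR-210-3p values was not tested, and in bulk tissue more cells of a type cannot be told apart from more miRNA per cell.

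miR-210-3p was then set beside other miRNAs described as responding to low oxygen. The list held 27 names of hairpins reported to rise in hypoxia, such as miR-21, the miR-23, miR-24 and miR-27 clusters, miR-26, miR-103, miR-107, miR-155, miR-181 and miR-424. It also held 4 names of miR-199a and miR-20b, which are reported to fall and to target the alpha subunit of hypoxia-inducible factor 1. Most of these miRNAs also have roles unrelated to oxygen, and none of them is as specific to hypoxia as miR-210. In these cortices 17 of the 31 names exceeded miR-210-3p in all 3 animals, 9 lay below it in all 3, and 5 changed sides. Among all 432 listed names, 164 lay above it and 230 below it in all 3 animals. Every listed arm of a hairpin counted as a name, so the list includes minor arms. miR-23b-5p, miR-27a-5p and miR-103-5p lay below miR-210-3p in all 3 animals, while the 3p arms of the same hairpins lay above it.

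The abundant names of the list lay far above miR-210-3p. miR-26a-5p, an inhibitor of cell growth, was highest with a mean of 46727 CPM ± 8237 (SD, n = 3), 542-fold the level of miR-210-3p. miR-21-5p, an abundant miRNA known from kidney injury and fibrosis, had 63710, 66478 and 59560 counts, and its mean CPM was 170-fold that of miR-210-3p. miR-424-5p, which targets the ubiquitin ligase scaffold CUL2 and so stabilises hypoxia-inducible factors, had 28744, 59520 and 57761 counts, 131-fold the mean of miR-210-3p. Like miR-210-3p, it was lowest in animal 1, with a wider span of 2.35-fold. miR-199a-3p lay 83.1-fold and miR-20b-5p 4.53-fold above miR-210-3p.

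Closest to miR-210-3p in level were miR-107-5p at 105.5 CPM ± 20.4, miR-24-5p at 117.7 CPM ± 22.9, miR-181a-3p at 77.3 CPM ± 13.2 and miR-26b-3p at 76.7 CPM ± 9.23. miR-107-5p was higher in all 3 animals, miR-24-5p in 2, and the last pair in 1 each. miR-155, an inflammatory miRNA that is also described as targeting hypoxia-inducible factor 1, had 321, 334 and 137 counts. Its mean of 60.0 CPM ± 22.1 was lower than that of miR-210-3p, although in animal 1 miR-155 was the higher of the pair.

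Across animals the list did not vary as one. Of its 31 names 29 entered the test between libraries, and 27 were called, against the 80.6% of all miRNAs. The median span was 1.58-fold, beside 1.71-fold over all 391. Of the 29, 9 spanned more than 2-fold, against 39.9% of all 391. The widest were miR-107-3p with 25493, 31656 and 1886 counts and miR-103-3p with 45567, 66947 and 5394 counts. These names, together with miR-23a-3p and miR-23b-3p, lay at -2 or below on the log2 scale in animal 3, where miR-210-3p lay at 0.21. Such drops in animal 3 were seen in 26 of all 391 miRNAs. The cause of these drops was not tested.

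**Figure D4:**
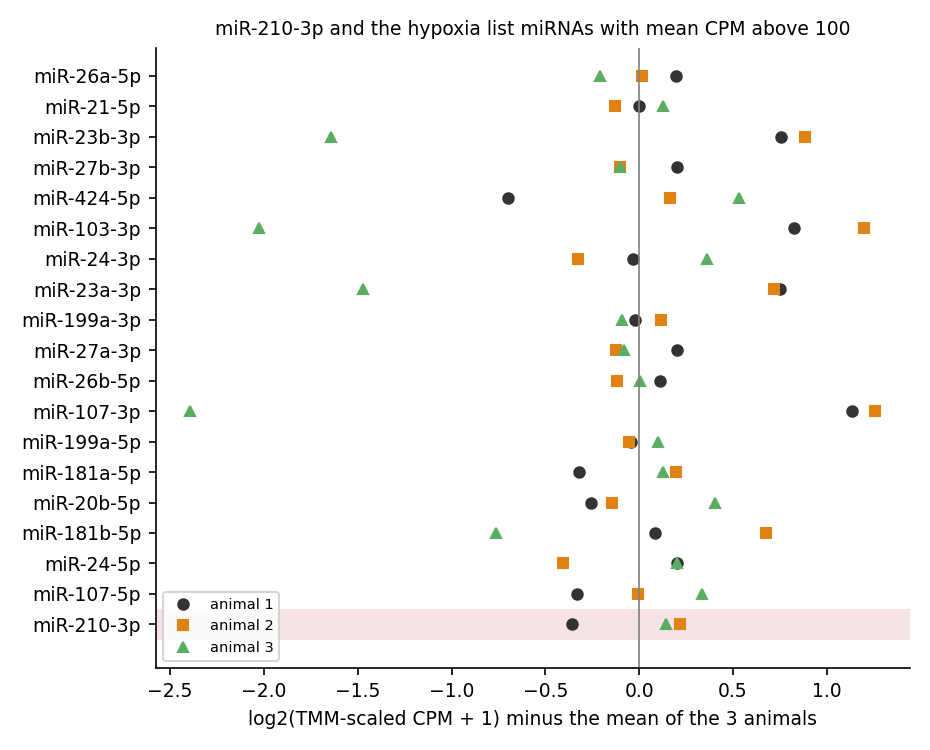
log2(TMM-scaled CPM + 1) of each animal minus the mean of the 3, for miR-210-3p (shaded) and the 18 hypoxia list names with a mean above 100 CPM, ordered by level. miR-210-3p lies at -0.36, 0.22 and 0.14 in animals 1, 2 and 3, whereas miR-103-3p, miR-107-3p, miR-23a-3p and miR-23b-3p lie far to the left in animal 3.

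The miRNAs whose profile over the 3 libraries was most like that of miR-210-3p were sought among 179 others with a mean of at least 100 CPM, by the Euclidean distance between centred log2(TMM-scaled CPM + 1) values. The nearest was miR-181a-5p, also on the hypoxia list, at a distance of 0.05 with 9455, 15398 and 11039 counts. miR-214-3p followed at 0.07, with 1648, 2644 and 2002 counts. miR-218-5p was at 0.09, miR-29b-2-5p at 0.12 and miR-106a-5p at 0.14, where the median distance was 0.60. All 5 were lowest in animal 1, with spans of 1.38- to 1.68-fold, which follows from their being chosen for likeness. Each profile rests on 3 libraries only. Of the 179 candidates, 18 were on the hypoxia list, and miR-181a-5p was the only one of them among the 5 nearest. Another of them, miR-181b-5p, had 1526, 2619 and 723 counts and was lowest in animal 3. The order of animals 2, 3 and 1 from high to low was shared by 36 other miRNAs of the 391, or 9.23% of the others.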

How the data were processed

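The deposited raw table gives whole-number read counts for 432 mature miRNAs in 3 libraries. Reads were mapped by the authors to M. fascicularis miRNAs allowing 0 mismatches, and miRNAs reaching 15 reads were kept, per the file headers. The aligner and the miRNA reference are not given in the sources used here, so reads with a variant base could be lost, and reads shared by similar miRNAs could be divided or counted under each name. The authors' normalized signal was made with edgeR per the file headers and served only as an alternative. Columns of sums and averages were not used.

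From the raw counts, CPM was computed over listed counts. TMM factors (edgeR 4.0.16, R 4.3.3) were 1.011, 1.052 and 0.940 for animals 1, 2 and 3. The chi-square test used a threshold of 0.05. Its script was tested on simulated data. Profiles used a pseudocount of 1. Alternatives were DESeq2 1.42.0 size factors, totals alone, other count minimums (none, and 100) and leaving out each animal.

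The miRNAs named are miR-210, 3 neighbours on each side in mean CPM, the 5 nearest profiles and members of the hypoxia and cell type lists. The first names to keep their side in all animals were added after their values were seen. In 4 pairs of names, 1 of them above miR-210-3p, every library gave both members the same count, and both stayed in all ranks and tests. In the hypoxia list, miR-199a was left out as a repeat of miR-199a-5p. miR-122 and miR-124 were matched to miR-122a and miR-124a. The member, the lists and the tests were chosen with earlier results of these data known. Mature sequences were not used here.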

Additional observations from a re-analysis of the deposited data

How the results depend on the processing

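Of 29 recalculated values of the level, span, rank, test and number of miRNAs called, 27 kept their side of the threshold or moved by less than the spread between animals (1.5 times for the number called). The others both came from leaving out animal 1. Across the fits that each left out 1 animal, the span of miR-210-3p ranged from 1.05 to 1.50-fold and the adjusted p of its difference between libraries from 1.23e-07 to 0.529, the highest p and the smallest span being those without animal 1. A span over fewer animals cannot be wider except through refitted scaling. The mean level ranged from 77.4 to 96.0 CPM and the rank from 181 to 190 with 1 animal left out. Leaving out 1 of 3 values cannot move their mean by as much as their SD. The level therefore had to count as kept in those fits. Under DESeq2 size factors, totals alone and the authors' signal, the span was 1.46-, 1.56- and 1.64-fold. The authors' signal is not scaled for library size. With 287 to 489 counts per library, a difference as small as that between animals 2 and 3 under TMM scaling was not detected. No paired analysis was possible because all 3 libraries belong to 1 group.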
